A study of Mus musculus with 2 samples.

Results

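The genes described here are the nuclear genes of oxidative phosphorylation, chosen by symbol: every gene of the deposited count table whose name begins with Nduf followed by a, b, c, s or v, with Cox and a digit from 4 to 8, with Uqcr or with Atp5. That rule took 89 of the 31053 genes listed, under 88 symbols because Atp5o appears with 2 identifiers. They comprise 36 subunits of complex I, 8 of complex III, 20 of complex IV (tissue isoforms, Ndufa4, Ndufa4l2 and Cox7a2l included), 17 of complex V and 8 complex I assembly factors of the Ndufaf group. A UMI, the molecular tag that counts 1 captured transcript, was found for 87 of the 89 in the cells kept.

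Cells were sorted from the cribriform plate, olfactory bulb and nasal mucosa of wild-type C57BL/6J female mice aged 10 weeks, either healthy or with experimental autoimmune encephalomyelitis (EAE), an induced autoimmune inflammation of the central nervous system. Each condition was 1 pool of 5 mice and so 1 sample, and the gate was meant for lymphatic endothelium, keeping cells stained for podoplanin and CD31 and dropping those with CD45, a protein of leukocytes. The 2 libraries are known here only by their barcode suffix, and the labels and files used here do not say which suffix stands for which condition. Library 1 and library 2 are therefore set side by side, no value is given a condition, and with 1 library on each side there is no replicate and no p-value. The 95% intervals are exact and reflect counting error alone.

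Library 1 held 3838 barcodes and 26269168 UMIs and library 2 held 2434 barcodes and 21272560 UMIs, and 8 barcode sequences occurred in both. Barcodes were kept from 200 genes upwards if no more than 20% of their UMIs came from mitochondrially encoded (mt-) genes. This gave 3406 and 1922 cells, with medians of 7334 and 9782.5 UMIs. Most of them were microglia-like by their transcripts, 2779 cells (81.6%) of library 1 and 1716 (89.3%) of library 2, and Ptprc, which encodes CD45, was detected in 81.9% and 81.1% of kept cells. No cluster passed as lymphatic endothelial. Over all kept cells Prox1, 1 of its 7 markers, had 380 and 127 UMIs, of which 318 and 112 lay in microglia-like cells. Pdpn had 30 and 6, Lyve1 25 and 1, Flt4 12 and 5, Mmrn1 11 and 0, and Reln 8 and 0. The Ccl21a entry counted had 0 in each. Another Ccl21a entry (ENSMUSG00000094686) was not counted as a marker, though it was a leading gene of the cluster called mixed. The libraries stood apart. Microglia-like clusters were each nearly all of 1 library, apart from the dividing cells (20 and 82), and the 9 microglia markers summed to 20134 CPM (counts per 1000000) in microglia-like cells of library 1 and 10838 in those of library 2, with none at 0. The 6 monocyte markers summed to 4.44 and 81.4 CPM there, nearly all of the latter from Plac8 (76.0 CPM), with Ly6c2 at 0 in library 1. The 8 macrophage markers summed to 11.5 and 14.2 CPM, with F13a1 at 0 in library 1 and Cd163 at 0 in library 2. The part of these differences in the results below was not tested.

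Oxidative phosphorylation passes electrons from NADH and succinate through complexes I, II, III and IV of the inner mitochondrial membrane to oxygen, and complex V uses the proton gradient so formed to make ATP. Complexes I, III, IV and V are each built from nuclear subunits, translated in the cytosol and imported, together with a few subunits encoded by mitochondrial DNA. Microglia, the resident macrophages of the brain, use this pathway when surveying and can shift towards glycolysis when activated. Factors known to drive many of the nuclear genes are NRF1, the ETS-family factor GABP (also called NRF2) and YY1.

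Promoters are shown because short motifs of these factors stood in a larger share of the members' promoters than of all promoters, although most members held none of them. RefSeq promoters of the GRCm38.p6 build, each running from 250 bases before to 50 after a gene's start, were matched for 73 of the 89 members. The palindromic NRF1 motif stood in 7 of these 73 (9.59%) against 1.07% of all 27025 genes with a promoter, the ETS motif CCGGAAG in 16 (21.9%) against 9.93%, and the YY1 motif AAGATGGC in 11 (15.1%) against 3.19%. Both strands were searched, and 30 members had at least 1 of the 3. A match describes the letters only. The promoters below are those of Atp5g2, which had the highest ratio between libraries in complex V, of Cox8a, which came next to Cox6a2 in complex IV on the log2 scale used below, and of Cox6a1, which holds 2 of the motifs; capitals mark motif matches, and CTTCCGG is the ETS motif read on the other strand. They lie on the minus strand at chr15:102670998-102671297, chr19:7217567-7217866 and chr5:115348909-115349208.
Atp5g2: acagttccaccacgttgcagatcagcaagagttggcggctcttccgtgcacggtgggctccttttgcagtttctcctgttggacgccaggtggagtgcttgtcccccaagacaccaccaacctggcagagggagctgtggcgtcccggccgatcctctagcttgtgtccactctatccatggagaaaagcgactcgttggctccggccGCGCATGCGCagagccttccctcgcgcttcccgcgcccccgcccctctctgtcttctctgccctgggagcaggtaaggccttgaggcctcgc
Cox8a: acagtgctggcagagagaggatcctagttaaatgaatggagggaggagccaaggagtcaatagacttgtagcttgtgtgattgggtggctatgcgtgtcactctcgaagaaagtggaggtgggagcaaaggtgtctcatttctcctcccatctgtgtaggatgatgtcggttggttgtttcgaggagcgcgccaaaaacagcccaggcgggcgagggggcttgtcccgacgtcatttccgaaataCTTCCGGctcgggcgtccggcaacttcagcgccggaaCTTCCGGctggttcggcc
Cox6a1: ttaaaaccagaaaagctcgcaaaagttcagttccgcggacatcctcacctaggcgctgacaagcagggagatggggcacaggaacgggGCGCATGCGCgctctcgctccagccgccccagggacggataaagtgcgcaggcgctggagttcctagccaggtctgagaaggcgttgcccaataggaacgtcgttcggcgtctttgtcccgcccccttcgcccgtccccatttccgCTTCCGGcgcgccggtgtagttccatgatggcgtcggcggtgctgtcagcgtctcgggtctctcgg
The Atp5g2 window holds 1 NRF1 motif and the Cox8a window a pair of ETS motifs near the gene's start. The Cox6a1 window holds 1 of each.

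Summed over microglia-like cells, the members made up more of the nuclear transcriptome in library 2. Their level was 9558 CPM (9516 to 9600) in library 1 and 13306 CPM (13252 to 13359) in library 2, a ratio of 1.39 (1.38 to 1.40). CPM here counts UMIs against those of nuclear genes alone, so that the mt- share does not enter the denominator. The median cell gave 0.936% of its nuclear UMIs to the members in library 1 (quartiles 0.797% and 1.09%) and 1.25% in library 2 (1.07% and 1.46%), so the upper quartile of library 1 lay just above the lower quartile of library 2. Enough UMIs to compare, at least 20 over both libraries, were available for 83 members. Of these, 73 were higher in library 2 and 10 lower, where 51.1% of all 12259 nuclear genes tested were higher. Their median log2 ratio, taken with a pseudocount of 10 CPM, was 0.34, beside 0.01 over all genes tested. On that scale 20 of the 83 were at least 1.5-fold higher in library 2, where the background was 7.59%, and 0 were at least 1.5-fold lower, where it was 6.76%. The 20 became 8 among cells with 5000 to 10000 UMIs, and 13 per all UMIs or with an mt- limit of 5%; the median depth of microglia-like cells was 7350 UMIs in library 1 and 9939 in library 2. Among genes with at least 1000 UMIs, 66 of 74 members were higher, where 45.7% of all such genes were, and 19 were at least 1.5-fold higher, where the background was 11.7%.

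**Figure D1:**
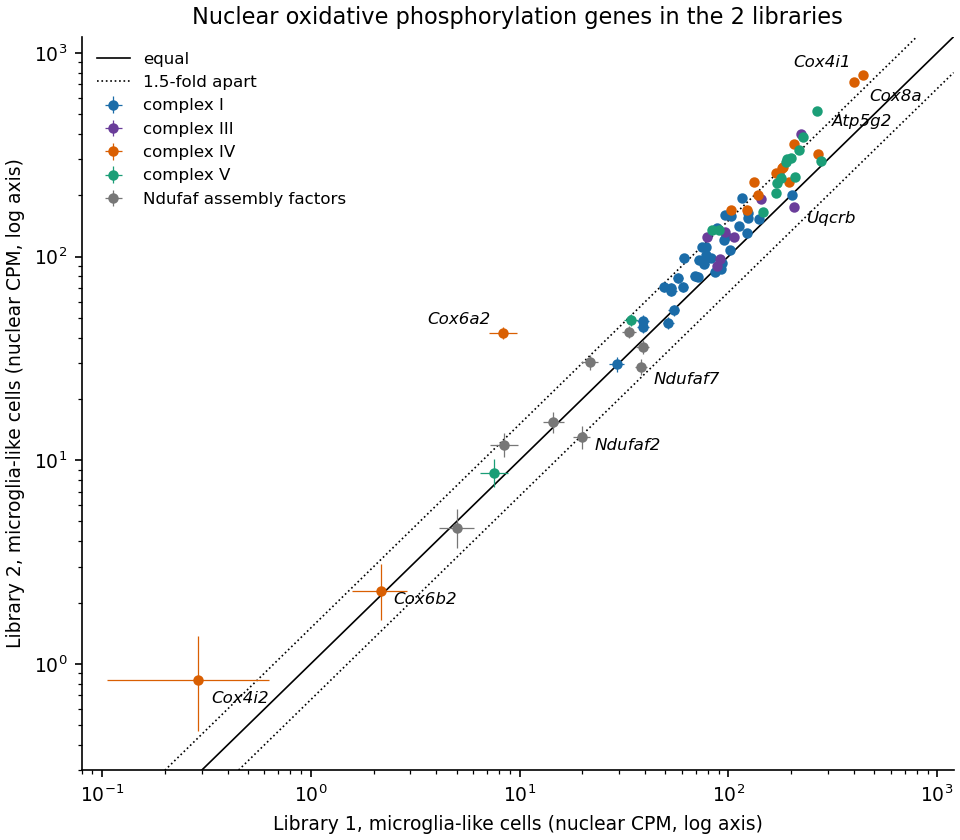
Level of each of the 83 members tested in microglia-like cells of library 1 (x axis) and library 2 (y axis), in CPM of nuclear UMIs on log axes, coloured by complex, with bars for the 95% counting interval. The solid line marks equal levels and the dotted lines a 1.5-fold difference without a pseudocount; Cox6a2 stands farthest above the line, at 8.35 and 42.2 CPM.

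The size of the difference was unequal across the chain. Complex IV was 1.58-fold higher in library 2 (1.56 to 1.59), complex V 1.45-fold (1.43 to 1.46), complex III 1.29-fold (1.26 to 1.31) and complex I 1.25-fold (1.24 to 1.27). The Ndufaf assembly factors, which build complex I and do not stay in it, summed to 180 and 182 CPM, a ratio of 1.01 (0.967 to 1.06). Complex II, which the symbol rule does not take in and whose genes are all nuclear, was 1.30-fold higher (1.26 to 1.34). Of its 4 genes 1, Sdhd, reached 1.5-fold, at 70.6 and 115 CPM, where 7.59% of all genes did. Of genes with at least 1000 UMIs 11.7% did.

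In complex I, which takes electrons from NADH, 31 of 36 subunits were higher in library 2, where 51.1% of all genes were. The 4 that were at least 1.5-fold higher are a share near the backgrounds of 7.59% over all genes and 11.7% over those with at least 1000 UMIs. The 7 nuclear core subunits, among them those that carry the flavin and the iron-sulfur clusters, had a median log2 ratio of 0.01, and the 29 accessory subunits one of 0.32. Among the core, Ndufs1, Ndufv1 and Ndufv2 lay between 0.918-fold and 1.17-fold. Ndufs3, also of the core, was at 88.5 and 139 CPM, 1.57-fold (1.47 to 1.66). The accessory subunits past 1.5-fold on the log2 scale were Ndufb9 (116 and 193 CPM), Ndufb5 (96.2 and 160 CPM) and Ndufa1 (61.5 and 98.4 CPM). Ndufa13, an accessory subunit also known as GRIM-19, was at 176 and 253 CPM, 1.44-fold. Ndufc2 did not follow, at 203 and 200 CPM, nor did Ndufa7 to the same degree, at 140 and 153 CPM.

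Complex III, the cytochrome bc1 complex, passes electrons from ubiquinol to cytochrome c. In library 2, 7 of its 8 members were higher, where 51.1% of all genes were. Uqcrh, the hinge protein, was at 224 and 399 CPM, 1.78-fold (1.71 to 1.85), and Uqcr10, a small subunit, at 79.3 and 124 CPM, 1.57-fold. These were the 2 members of the complex past 1.5-fold, where the background was 7.59%, or 11.7% over genes with at least 1000 UMIs. The Rieske iron-sulfur protein gene Uqcrfs1 was at 96.8 and 131 CPM, and the small subunits Uqcrq and Uqcr11 were 1.34-fold and 1.17-fold higher. Uqcrb, a ubiquinone-binding subunit, was lower in library 2, at 206 CPM (200 to 212) against 175 CPM (169 to 182), and these intervals do not overlap. The core proteins Uqcrc1 and Uqcrc2 were within 1.07-fold.

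Complex IV, cytochrome c oxidase, had the highest ratio. All 15 of its members with enough UMIs were higher in library 2, where 51.1% of all genes were. Of them 7 were at least 1.5-fold higher, where the background was 7.59%, or 11.7% over genes with at least 1000 UMIs. For Cox6b2, at 45 and 41 UMIs, the interval of the ratio spans 1 (0.670 to 1.64). Cox4i1, the general form of subunit 4, was at 442 CPM in library 1 and 777 CPM in library 2, 1.76-fold (1.71 to 1.80). Cox8a, the general form of subunit 8, was at 402 and 719 CPM, 1.79-fold. Cox7a2l, described as a factor joining complexes III and IV in supercomplexes, a role not tested in these mice, was at 207 and 357 CPM. Cox5a, Cox7b and Cox6c were 1.74-fold, 1.64-fold and 1.53-fold higher. Cox7c and Ndufa4, once counted with complex I and now placed in complex IV, were each 1.19-fold higher. Without the tissue isoforms the ratio of complex IV was 1.56.

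Cox6a2 (ENSMUSG00000030785), the form of subunit 6a known from heart and skeletal muscle, had the highest ratio of the members. It was at 8.35 CPM (7.15 to 9.69) in library 1 and 42.2 CPM (39.3 to 45.3) in library 2, 5.06-fold (4.28 to 6.00), while its general counterpart Cox6a1 was at 123 and 169 CPM, 1.38-fold. Cox6a2 was detected in 4.82% of microglia-like cells of library 1 (134 of 2779) and 26.2% of those of library 2 (450 of 1716). Thinned to 1000 UMIs a cell, which left 2775 and 1714 cells, these shares were 0.793% and 2.98%. Microglia-like clusters apart from the dividing cells were each nearly all of 1 library, so the level of Cox6a2 by cluster restates the library difference. Cox6a2 ran from 6.85 to 9.34 CPM in those of library 1 and from 33.8 to 64.9 CPM in those of library 2. In the unnamed library 1 cluster led by Folr2 and Lpl it was in 26 of 296 cells. In the olfactory sensory neuron-like cells of library 2, at a median depth of 11227 UMIs against 9939 in microglia-like cells, a Cox6a2 UMI was found in 0 of 37 cells. By the approximate rule of 3 over the number of cells, not an exact interval, this allows a share of cells with a UMI of up to 8.11%. It sets no limit on the share expressing the gene.

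The other tissue isoforms were at or near 0 in microglia-like cells. Cox4i2, known from lung and hypoxic tissue, had 6 UMIs in library 1 and 15 in library 2. Cox6b2, known from testis, had 45 and 41. Cox7a1 had 6 in each, Cox8b and Ndufa4l2 had 1 and 0 each, and Cox7b2, Cox8c and the second Atp5o identifier had none. These 6 therefore did not enter the comparison between the libraries. The limit of 20 UMIs was applied anew in each comparison of cell classes. Cox8b, a form of subunit 8 known from heart and muscle, was found mainly in epithelial or sustentacular-like cells of library 1, with 42 of the 44 UMIs of the kept cells, in 9 of 65 cells. Cox7a1 was in 8 of 37 olfactory sensory neuron-like cells of library 2.

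Complex V, the ATP synthase, had 16 members with enough UMIs, all higher in library 2, where 51.1% of all genes were. Of them 7 were at least 1.5-fold higher, where the background was 7.59%, or 11.7% over genes with at least 1000 UMIs. Not every ratio of the 16 had an interval clear of 1. The membrane ring of c subunits is encoded by 3 genes for the same mature protein, and they differed in their ratio. Atp5g2 (ENSMUSG00000062683) was at 267 CPM (260 to 274) and 517 CPM (506 to 527), 1.93-fold. Atp5g3 was at 90.7 and 135 CPM, 1.48-fold, and Atp5g1 at 146 and 165 CPM, 1.13-fold. In the catalytic head, Atp5b, the beta subunit, was at 228 and 387 CPM, 1.70-fold (1.64 to 1.76), while Atp5a1, the alpha subunit that alternates with it in the same ring, was at 279 and 293 CPM, 1.05-fold (1.01 to 1.09). Atp5e and Atp5c1, of the central stalk, were 1.53-fold and 1.55-fold higher. Of the peripheral stalk, Atp5h was at 192 and 302 CPM and Atp5o (ENSMUSG00000022956) at 83.7 and 135 CPM, both past 1.5-fold.

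Of the 8 Ndufaf assembly factors 4 were higher in library 2 and 4 lower, near the 51.1% of all genes that were higher, and none passed 1.5-fold on the log2 scale. Ndufaf2, which acts late in assembly, was at 19.8 and 12.9 CPM, and Ndufaf7, a methyltransferase, at 38.2 and 28.7 CPM. Ndufaf4 was at 21.8 and 30.2 CPM, Ndufaf8 at 33.4 and 42.7 CPM and Ndufaf3 at 38.9 and 36.0 CPM. Of 26 further assembly factors of complexes I, III, IV and V outside the symbol rule, 20 were higher in library 2, where 51.1% of all genes were. Of the 26, 0 passed 1.5-fold in either direction, beside backgrounds of 7.59% higher and 6.76% lower. Their sum was 1.19-fold higher. Of these, Uqcc2 was at 57.8 and 84.8 CPM and Cox20 at 59.7 and 40.9 CPM.

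Related lists set these values in scale. Of all genes tested 51.1% were higher in library 2, 7.59% at least 1.5-fold higher and 6.76% at least 1.5-fold lower. Mitochondrial ribosomal proteins, which translate the mt- transcripts, were 1.19-fold higher in library 2 as a sum, with 61 of 78 higher and 3 past 1.5-fold. The 15 genes of the tricarboxylic acid cycle and pyruvate dehydrogenase, which feed electrons to the chain, summed to 857 and 918 CPM, 1.07-fold, and 0 passed 1.5-fold. Glycolysis genes were 1.38-fold higher, 2194 against 3030 CPM, with Gpi1, Pfkp, Pgk1 and Pkm past 1.5-fold higher and Hk1 past 1.5-fold lower. Of these lists, the cytosolic ribosomal protein and the immediate early genes differed more than the members. Cytosolic ribosomal protein genes were at 70750 and 130617 CPM, 1.85-fold, with 71 of 84 past 1.5-fold higher. The 20 immediate early and heat shock genes, a group known to be induced by tissue dissociation, were at 66969 and 26061 CPM, 0.389-fold, with 19 of 20 past 1.5-fold lower.

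The mt- genes differed more between the libraries than the nuclear members did. They held 1.60% of the UMIs of microglia-like cells in library 1 and 3.79% in library 2, 2.38-fold (2.37 to 2.38), and the median cell had 1.44% and 3.58%. For each UMI of a nuclear member there were 1.70 mt- UMIs in library 1 and 2.96 in library 2. By complex, the mt- genes of complex IV were 2.74-fold higher and those of complex V 2.83-fold, against 1.99-fold for mt-Cytb of complex III and 1.71-fold for the 7 mt-Nd genes of complex I. Complexes IV and V were thus above complexes I and III on both the nuclear and the mitochondrial side. Single mt- genes ran from mt-Co1 (2052 and 6031 CPM of all UMIs, 2.94-fold) to mt-Nd5 (304 and 342, 1.13-fold). The exception in direction was mt-Nd4l, at 215 and 124, 0.576-fold; it overlaps mt-Nd4, as mt-Atp8 (1.29-fold) overlaps mt-Atp6 (2.85-fold), and how reads over such overlaps were assigned is not given in the sources used here.

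**Figure D2:**
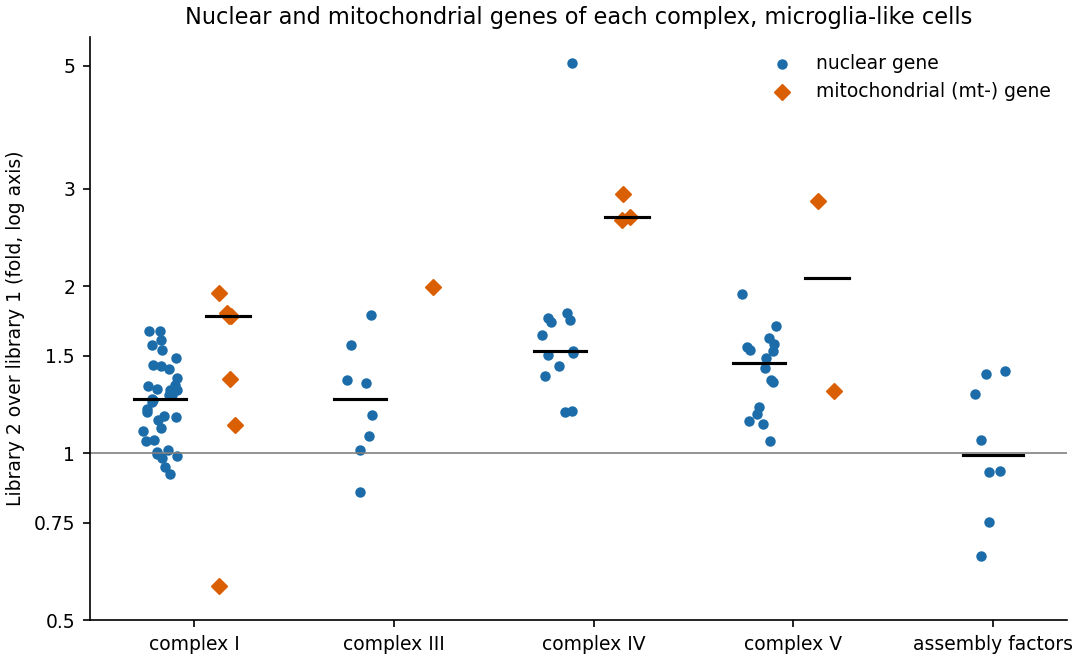
Ratio of library 2 over library 1 in microglia-like cells (y axis, log scale) for each nuclear member with at least 100 UMIs (circles, on nuclear CPM) and each mt- gene (diamonds, on CPM of all UMIs), by complex. Black bars are medians over the genes of a column; the mt- genes lie above the nuclear members of their complex apart from mt-Nd4l, mt-Nd5, mt-Nd6 and mt-Atp8, and Cox6a2 lies above those of complex IV.

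Cell by cell, the share of nuclear UMIs given to the members went with the mt- share within each library, although the denominators are separate. Spearman's rho was 0.26 over 2779 cells of library 1 and 0.31 over 1716 cells of library 2; cells of a library share their preparation, and no p is given. Complex IV had the higher rho of the complexes in both libraries (0.26 and 0.30), and the Ndufaf factors were near 0 (-0.03 and 0.02). Cells with under 1% mt- UMIs had 8748 CPM of the members in library 1 and 11111 in library 2. Cells with 1% to 2% had 9450 and 11723 CPM, cells with 2% to 4% had 10565 and 12848 CPM, and cells with 4% to 8% had 10722 and 14295 CPM. Above 8% there were 12 cells at 14103 CPM in library 1 and 34 at 16639 CPM in library 2. At each of the 4 lower ranges of the mt- share library 2 was above library 1, by 1.22-fold to 1.33-fold.

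**Figure D3:**
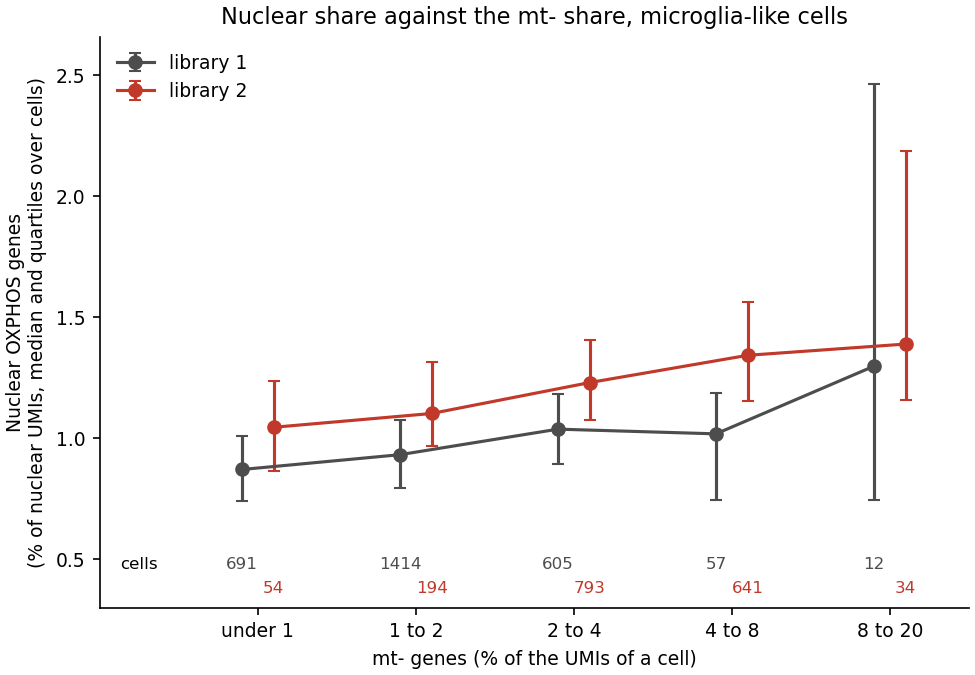
Share of nuclear UMIs from the members (y axis, %) in microglia-like cells grouped by the mt- share of a cell (x axis, % of all UMIs); points are medians over cells and bars their quartiles, with the number of cells below. Medians run from 0.871% to 1.30% in library 1 and from 1.05% to 1.39% in library 2, and the last range of library 1 rests on 12 cells.

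Cells in the upper tercile of mt- share were set against those in the lower tercile. The members summed to 8867 and 10370 CPM in the lower and upper tercile of library 1, 1.17-fold, and to 12148 and 14540 CPM in those of library 2, 1.20-fold. Of 82 members tested in each library, 70 and 75 were higher at high mt- share, where 47.6% and 43.1% of all genes were. None reached 1.5-fold in either direction, beside backgrounds of 0.637% higher and 0.0554% lower in library 1 and 0.167% and 0.186% in library 2. Cox4i1 was at 387 and 486 CPM in the terciles of library 1 and at 674 and 873 CPM in those of library 2. Other measures moved with the mt- share as well. The median immediate early share was 7.12% of nuclear UMIs in the lower tercile of library 1 and 5.57% in the upper, and 2.77% and 2.19% in library 2. The median ribosomal protein share was 6.13% and 7.54% in library 1 and 11.7% and 13.2% in library 2, and the median depth 7197 and 7472 UMIs in library 1 and 9094.5 and 10449 in library 2. Their part in the relation was not tested.

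The members' share followed the immediate early and ribosomal protein shares more closely than the mt- share. Over cells, rho with the immediate early share was -0.46 in library 1 and -0.44 in library 2, and with the ribosomal protein share 0.39 and 0.55; all of these are shares of the same nuclear total. The library difference was therefore also taken among cells of like share, a set of comparisons added after the values were seen. In 6 ranges of the immediate early share the ratio of the members was 1.09 to 1.13, and in 4 ranges of the ribosomal protein share 1.05 to 1.13, beside 1.39 over all cells. In 5 ranges of depth it was 1.22 to 1.46.

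Among cells with 3% to 5% immediate early UMIs, 47 of 82 members were higher in library 2, where 45.6% of all genes were. Cox6a2 and Atp5g2 were at least 1.5-fold higher, where the background was 7.47%, and 0 were lower, where it was 8.22%. There complex I had a ratio of 1.003, complex III 1.06, complex IV 1.24 and complex V 1.15. Cox6a2 was at 12.5 and 33.0 CPM, Atp5g2 at 292 and 489 CPM, Cox4i1 at 481 and 705 CPM, and Uqcrb at 218 and 156 CPM. Among cells with 8% to 10% ribosomal protein UMIs, 42 of 81 members were higher, where 57.4% of all genes were. Cox6a2 and Atp5b were at least 1.5-fold higher (background 12.3%) and Ndufaf2 at least 1.5-fold lower (background 6.53%). In these cells Cox6a2 was at 8.20 and 23.0 CPM and Atp5b at 218 and 343 CPM. Cox7a2l, 1.73-fold over all cells, was at 265 and 257 CPM. Among cells with 2% to 4% mt- UMIs, 61 of 82 members were higher (52.3% of all genes), and 6 were at least 1.5-fold higher, where the background was 7.68%: Cox6a2, Cox4i1, Cox8a, Cox7a2l, Atp5b and Atp5g2. None was 1.5-fold lower, where the background was 6.53%. Cox6a2 is the member that passed 1.5-fold in each of these 3 sets of cells.

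**Figure D4:**
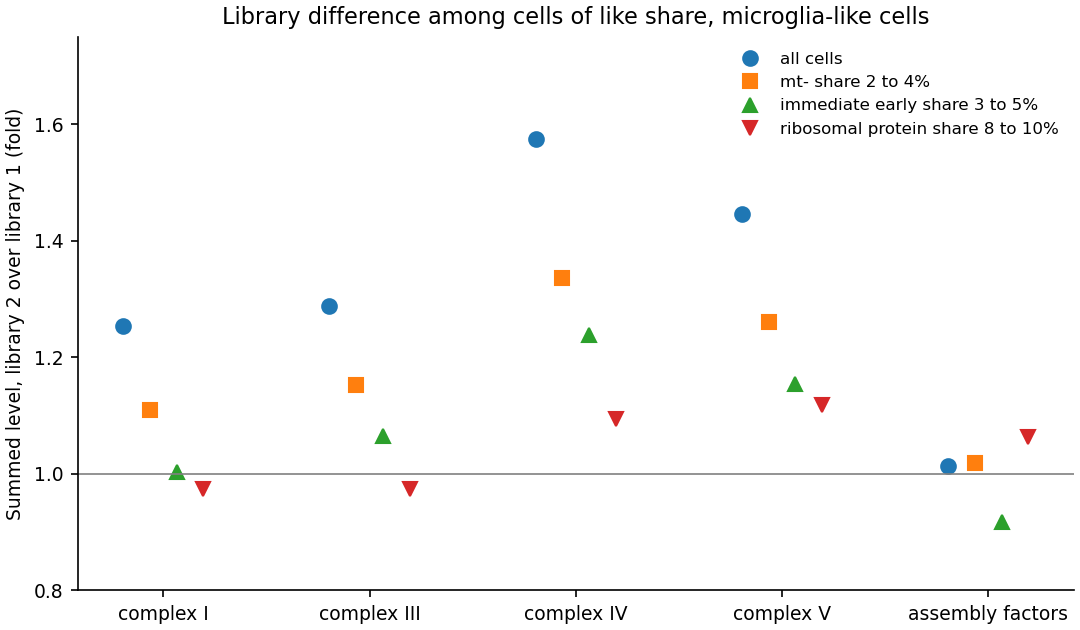
Ratio of the summed level in library 2 over library 1 (y axis, linear) for each complex, over all microglia-like cells and among those with 2% to 4% mt- UMIs, 3% to 5% immediate early UMIs or 8% to 10% ribosomal protein UMIs. Complex IV lies at 1.58 over all cells and at 1.34, 1.24 and 1.09 in the 3 sets, and complex I at 1.25, 1.11, 1.003 and 0.973.

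Within the microglia-like class the members' level was taken in clusters with at least 50 cells of a library. Apart from the dividing cells each was nearly all of 1 library, so a gap between clusters of the 2 libraries restates the library difference. The 3 clusters of library 1 lay at 8819, 9203 and 10629 CPM, the highest being the one led by Tmx4 and the microglial gene Fcrls. In library 2 the cluster led by Apoc1 and Apoe was at 12293 CPM, that led by the interferon-induced genes Ifit3 and Rsad2 at 12356 CPM, and that led by the chemokine genes Cxcl9 and Cxcl13 at 14084 CPM. The 82 dividing cells of library 2, led by Mki67, were highest at 17569 CPM (17324 to 17818). Without the dividing cells the log2 ratio of the libraries was 0.45 in place of 0.48.

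Among the other classes of cells, clustered without the members, mt- genes and the lists above, the level ranged more widely than between the libraries. The 37 olfactory sensory neuron-like cells of library 2 had 36636 CPM (36077 to 37202), 2.75-fold the level of microglia-like cells of that library, at an mt- share of 5.49%. There 78 of 82 members were higher, where 53.4% of all genes were, and 76 were at least 1.5-fold higher, where the background was 34.2%, and 1 was at least 1.5-fold lower, where it was 25.8%. Ndufv3 was 7.60-fold higher, Ndufb4 6.75-fold, Atp5o (ENSMUSG00000022956) 6.60-fold and Ndufa4 6.44-fold, at 1503 CPM against 233. Cox4i1 was at 1532 CPM and Cox8a at 1467 CPM, 1.97-fold and 2.04-fold. Atp5g2 was lower there, at 356 CPM (303 to 416) against 517, while Atp5g1 and Atp5g3 were 1.73-fold and 3.41-fold higher, so Atp5g2, which had the highest ratio of the c-ring genes between the libraries, had the lowest here.

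The 65 epithelial or sustentacular-like cells of library 1 had 25164 CPM, 2.63-fold the level of the microglia-like cells beside them, with 79 of 83 members higher (53.3% of all genes), 69 at least 1.5-fold higher (background 23.7%) and 1 lower (17.1%). Their median depth was 831 UMIs and the median share per cell 1.89%. At a higher clustering resolution they divided into 9 deep cells (median 23961 UMIs), which gave 50.8% of the UMIs of the class and had 30174 CPM, and 56 shallow cells (median 792.5 UMIs) at 20276 CPM, so the summed level rests largely on a few cells. The 48 and 61 olfactory ensheathing glia-like cells had 14644 CPM in library 1 and 17064 CPM in library 2, 1.53-fold and 1.28-fold the microglia-like level. In each library 73 of 82 members were higher, where 46.9% and 49.9% of all genes were. In library 1, 32 of the 82 were at least 1.5-fold higher (background 11%) and 3 lower (9.55%), and in library 2, 17 were higher (10.9%) and 1 lower (5.98%). Microglia markers summed to 16233 and 7836 CPM in these cells, a large part of the level in microglia-like cells, and the part of such transcripts in these values was not tested. Between the libraries the level of ensheathing glia-like cells differed 1.17-fold (1.12 to 1.21). That of the cluster called mixed, with 62 and 97 cells, differed 1.57-fold (1.52 to 1.63), at 14939 and 23525 CPM. The mixed cluster had markers of more than 1 cell type, and the part of its make-up in this ratio was not tested. The 53 macrophage-like cells of library 1 had 10049 CPM, 1.05-fold the microglia-like level. Of 82 members 47 were higher (41.1% of all genes), 1 was at least 1.5-fold higher (background 5.63%), Cox5a at 232 against 133 CPM, and 2 were lower (background 8.32%).

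**Figure D5:**
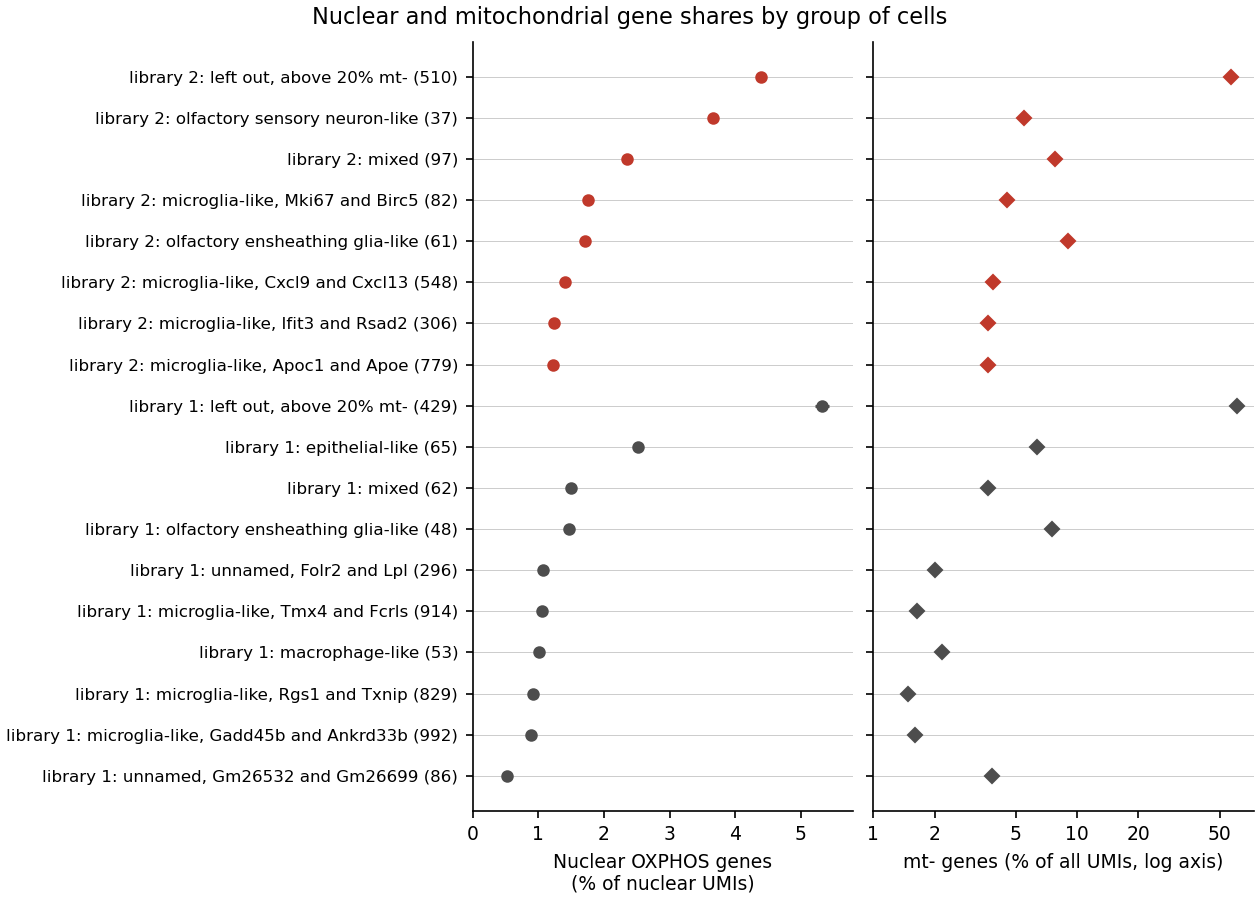
Summed level of the members (left, % of nuclear UMIs) and mt- share (right, % of all UMIs, log axis) in each group of cells, with the number of cells in brackets; library 1 in grey and library 2 in red, sorted by level within a library. Microglia-like clusters lie between 0.882% and 1.06% in library 1 and between 1.23% and 1.76% in library 2, below the olfactory sensory neuron-like cells at 3.66%.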

How the data were processed

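Single-cell UMI counts of 2 pooled samples were used. The deposited matrix holds raw counts as whole numbers per gene and barcode, and per the file headers it came from Cell Ranger 3.1.0 in matrix format 2; bcl2fastq and UMI-tools are named in the submitters' processing notes. For genome build, annotation and library kit nothing is given in the sources used here. UMI counts carry no length term, so levels are compared between cells, not between genes, and reads from pseudogene copies cannot be told apart.

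Counts were analysed with Python 3.11.15, NumPy 2.4.6, SciPy 1.17.1, pandas 2.3.3 and Scanpy 1.11.5 (igraph 0.11.9 for Leiden at resolution 1, on 2000 variable genes without members, mt- genes and pathway lists, 30 principal components and 15 neighbours). A cluster took the cell type that had 3 or more markers in its top 50 genes by fold, or was microglia-like with at least 5 of 9 microglia markers at 100 CPM or more. Clusters with other leading genes stayed unnamed, and a cluster with markers of more than 1 type was called mixed. Also left unnamed were clusters with a median depth under 0.333 of the library median and no marker of their own type in the top 10 genes. No doublet caller was run. Levels are CPM of nuclear UMIs, summed over a class and library, with exact Poisson or binomial 95% intervals; log2 ratios were taken after adding 10 CPM, for genes with at least 20 UMIs, and the ratio steps were tested on simulated data. Named were, per complex, the 4 members with most UMIs and the 4 with the largest ratios, the isoform sets, and mt- and complex II genes, used as examples; other genes, the grouping by role and the bands of like share were chosen after values were seen. The members and lists were chosen with earlier results of these data known. Values of 1 of the 89 members are not reported here singly. Alternatives covered the denominator, mt- limit, cells, depth, clustering, pseudocount and thinning.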

Additional observations from a re-analysis of the deposited data

Results flagged for a closer look

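Barcodes above the 20% mt- limit are outside the comparisons of the report, and they held a high level of the nuclear members. In the 429 such barcodes of library 1 the members summed to 53226 CPM of nuclear UMIs (52193 to 54274), and in the 510 of library 2 to 43957 CPM (43327 to 44594), both above the levels of every class of kept cells given in the report. Their mt- share was 61.1% and 56.9% of all UMIs, and their median depth 814 and 1511 UMIs. Microglia markers summed to 1897 and 1071 CPM there, against 20134 and 10838 in microglia-like cells. Markers of other cell types were higher there: those of olfactory ensheathing glia summed to 3946 and 16852 CPM, against 5.74 and 13.6 in microglia-like cells, those of olfactory sensory neurons to 4104 and 7600 CPM, against 9.45 and 13.7, and epithelial or sustentacular markers to 969 and 822 CPM, against at most 2.70 in microglia-like cells. The part of these cell types in the level was not tested.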

How the results depend on the processing

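The log2 ratio of the summed members kept its sign in all 18 alternatives run, and left its counting interval in 13 of them. The median log2 ratio of the members kept its sign in all 20, and left its interval in 5. Sign is read against 0 here, not against all genes. Among cells with 8% to 10% ribosomal protein UMIs, 42 of 81 members were above 0, where 57.4% of all genes were. The rank correlations with the mt- share also kept their sign. Counts, shares and levels cannot change sign, so no reversal could be seen in the other results. The log2 ratio of the summed members was 0.48, and 0.44 per all UMIs, 0.57 without mt-, ribosomal protein and haemoglobin UMIs, 0.44 with an mt- limit of 5%, 0.49 over all kept cells, 0.50 over every barcode, 0.46 in cells with at least 5 microglia markers, 0.46 at Leiden resolution 0.5, 0.34 in cells with 5000 to 10000 UMIs and 0.45 without dividing clusters. In the sets added after seeing the data it was 0.16 (immediate early share), 0.067 (ribosomal protein share), 0.28 (mt- share) and 0.46 (with the cluster led by Folr2 and Lpl). The 20 members at least 1.5-fold higher became 13 per all UMIs, 13 with the 5% limit, 8 at 5000 to 10000 UMIs, and 2, 2 and 6 in the first 3 added sets; the 0 lower became 1 in the ribosomal protein set. The median log2 ratio of 0.34 became 0.42 without ribosomal protein UMIs, 0.18 at 5000 to 10000 UMIs, and 0.035, 0.0081 and 0.18 in those sets. The median share per cell was 0.916% thinned and 0.922% per all UMIs in library 1, and 1.17% at 5000 to 10000 UMIs and 1.21% per all UMIs in library 2. The mt- share was 1.59% and 3.73% with a limit of 10%, 2.98% and 6.54% over every barcode, and 1.53% and 3.51% at 5000 to 10000 UMIs. The rank correlation with the mt- share was 0.21 and 0.23 thinned, and 0.25 in library 2 per all UMIs. Between terciles, a pseudocount of 1 CPM gave 1 member higher in each library and 1 lower in library 2, and an upper against a lower quartile gave 1 higher in library 2. Per all UMIs the class levels were 13537 and 15522 CPM (ensheathing glia-like), 34623 (sensory neuron-like) and 23555 (epithelial-like), the last being 19456 at resolution 0.5. The causes were not tested, beyond the change of cells or denominator that each alternative makes.

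With 1 library on each side, no value has a replicate, and the libraries differ in cell states, depth and mt- share together. The labels name no condition for a suffix. No paired analysis was possible because each condition is 1 pool and the columns carry no replicate numbers. The 12 cells of library 1 above 8% mt- UMIs and classes under 100 cells give coarse values.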

Other observations

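Of 15 regulators of mitochondrial gene expression with enough UMIs in microglia-like cells, 8 were higher in library 2 and 7 lower, near the 51.1% of all genes that were higher. Ppargc1b, a coactivator of mitochondrial biogenesis, had 48 UMIs in library 1 and 347 in library 2, at 2.32 and 19.3 CPM, 8.32-fold. Its relative Ppargc1a had 0 and 2 UMIs. Yy1 was at 212 and 100.4 CPM and Gabpb1, which encodes a GABP subunit, at 27.2 and 14.1 CPM, both at least 1.5-fold lower in library 2, while Nrf1 was at 29.2 and 31.5 CPM and Tfam, which packages mitochondrial DNA, at 26.1 and 22.9 CPM. Coq7, an enzyme of ubiquinone synthesis, was at 17.1 and 38.1 CPM.

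Over microglia-like cells, the summed shares of nuclear complexes I, IV and V went together more than any of the 3 did with the mt- genes. Spearman's rho between complexes I and V was 0.41 in library 1 and 0.58 in library 2, between complexes I and IV 0.37 and 0.58, and between complexes IV and V 0.34 and 0.60. Between the mt-Nd and mt-Co genes it was 0.84 and 0.87. Between nuclear complex I and the mt-Nd genes it was 0.14 and 0.27, and between nuclear complex IV and the mt-Co genes 0.26 and 0.29. Values like those between the complexes were also seen with other nuclear lists. Complex I with the mitochondrial ribosomal proteins had 0.42 and 0.45, and complex IV with the cytosolic ribosomal proteins 0.40 and 0.55. The other pairs of complexes I, IV and V with these lists ran from 0.24 to 0.48. The nuclear sums rest on fewer UMIs per cell for complex III than for complexes I, IV or V, and all values share the library and depth of the cell.

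The unnamed library 1 cluster of 86 low-depth cells led by Gm26532 and Gm26699, at a median of 2270.5 UMIs, had the lowest level of the members, 5291 CPM (4985 to 5611), at an mt- share of 3.82%. Its microglia markers summed to 24252 CPM, against 20134 in microglia-like cells of library 1. It had 8 of the 9 microglia markers at 100 CPM or more and was left unnamed by the depth rule. The unnamed cluster of 296 cells led by Folr2 and Lpl had 10749 CPM.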
